A study of Homo sapiens with 14 samples.

Results

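The vacuolar-type proton ATPase (V-ATPase) was followed through 10 of its genes in U2OS, a human osteosarcoma cell line, treated with small molecules that act on chromatin or on the mTOR kinase. The members were chosen by name as ATP6V1A, ATP6V1B2, ATP6V1C1, ATP6V1D, ATP6V1E1, ATP6V1H, ATP6V0B, ATP6V0D1, ATP6V0E1 and ATP6AP1. All 10 were present among the 22919 gene symbols listed in both deposited expression tables, and all 10 passed the filter of a mean of at least 1 FPKM (a fragment count scaled by transcript length and library size). Of these, 6 encode the V1 sector, 3 the V0 sector and 1 an accessory protein.

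Every culture was the same U2OS line, with no genetic change stated in the labels. The control was DMSO at 0.5% by volume, with no time given. Cells received 2-PCPA (tranylcypromine, an inhibitor of the histone demethylase LSD1 and of monoamine oxidases) at 1 mM for 12 h, GSK343 (an EZH2 inhibitor) at 10 µM for 24 h, or rapamycin (an mTORC1 inhibitor) at 5 µM for 24 h, and each of these groups had 2 libraries. A single library each came from BIX-01294 (an inhibitor of the methyltransferase G9a) at 5 µM for 12 h and GSK-J4 (an inhibitor of H3K27 demethylases) at 20 µM for 12 h. The other single libraries were BRD4770 (described as a G9a inhibitor) at 20 µM, SAHA (vorinostat, a histone deacetylase inhibitor) at 1 µM, UNC1215 (a ligand of the methyl-lysine reader L3MBTL3) at 50 µM and VPA (valproic acid, a histone deacetylase inhibitor) at 20 µM, each for 24 h. Time in culture and compound cannot be told apart where the control carries no time. Since no label says that replicates were separate cultures, each p-value reflects only how far these libraries spread, which may be technical.

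The V-ATPase is a rotary motor that uses ATP to pump protons into lysosomes, endosomes, Golgi vesicles and, in some cells, out of the cell. Its cytosolic V1 sector hydrolyses ATP, and its membrane V0 sector carries the protons. The pump acidifies the lysosome, which lets its hydrolases work, and it takes part in amino acid sensing by mTORC1 at the lysosomal surface. Transcription factors of the MiT family (TFEB, TFE3, MITF, TFEC) bind an E-box with flanking bases, the CLEAR element, at many lysosomal and V-ATPase genes. In bulk RNA, a change in the number of cells of one kind and a change in RNA per cell cannot be told apart.

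The RefSeq promoter table for GRCh38.p14, with 250 bases before and 50 after each gene start, matched 5 of the 10 members: ATP6V0B, ATP6V0D1, ATP6V1D, ATP6V1E1 and ATP6AP1. It also matched 13 of 15 other V-ATPase subunit genes. The core E-box CACGTG, a palindrome read the same on both strands, was found in the promoters of 2 of the 5 members, ATP6V0B and ATP6V0D1, and of 2 other subunit genes, ATP6V0E2 and ATP6V1G1. It was present in 7.26% of all 35116 promoters in the table. The extended form GTCACGTG, searched on both strands, was present in ATP6V0B, ATP6V0D1 and ATP6V1G1 and in 2.4% of all promoters, and TCACGTGA was present in ATP6V0D1 and ATP6V1G1 and in 0.98%. The full CLEAR palindrome, GTCACGTG followed by AC, which contains the shorter forms, was present in ATP6V1G1 alone among these genes and in 0.353% of all promoters. These matches describe letters within the window and are not measured binding sites.

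The 3 stretches below are shown because they hold the extended motif in subunits whose values are given further on. Each is written 5′ to 3′ on the gene's strand with CACGTG in capitals and 20 bases on either side. That of ATP6V0B lies at chr1:43974883-43974946 on the plus strand, with motifs starting 57 and 39 bases upstream of the gene start. That of ATP6V0D1 lies at chr16:67481191-67481236 on the minus strand, 59 bases upstream, and that of ATP6V1G1 at chr9:114587691-114587736 on the plus strand, 58 bases upstream.
ATP6V0B: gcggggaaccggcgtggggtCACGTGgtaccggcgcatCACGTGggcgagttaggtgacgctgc
ATP6V0D1: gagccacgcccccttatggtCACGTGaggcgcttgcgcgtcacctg
ATP6V1G1: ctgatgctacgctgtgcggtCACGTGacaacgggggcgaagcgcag

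The 14 libraries lay in 2 tables made separately, 10 in the first and 4 in the second, and every ratio below was taken against DMSO of the same table. Absolute depth is unknown because FPKM carries no counts. Relative depth was estimated from the most common ratio between DMSO and library FPKM among genes of very low FPKM in both. This estimate could not be checked against read counts. Set to 1 for the DMSO library of each table, it ranged from 0.555 (BIX-01294) to 1.24 (SAHA) in the first table. For the treated libraries of the second table it ranged from 0.676 to 0.809. Among markers of the U2OS lineage, VIM, COL1A1, SPARC and CDH2 were above 1 FPKM in all 14 libraries, RUNX2 ranged from 0.629 to 5.27 FPKM in the first table, and COL1A2 stayed below 0.1 FPKM. Of 11 markers of epithelial, blood, liver, red cell and osteoclast identity, 2 reached 1 FPKM in any library (EPCAM and CTSK), and their summed level was 1.04 to 4.10 FPKM in the first table and 2.85 to 3.95 in the second. CD3E was listed at 0 throughout, and ATP6V0D2, the osteoclast form of the d subunit, did not exceed 0.363 FPKM. The first 2-PCPA library stood apart, with a median log2 difference from DMSO of -0.43 over 12804 genes and a summed FPKM of 291956 against 456039 in DMSO.

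In DMSO the members spanned a range of 11.9-fold in the first table and 14.1-fold in the second, on the length-normalised FPKM scale. ATP6V0E1, a small V0 membrane subunit, had 96.1 FPKM in replicate 1 and 69.8 in replicate 2. ATP6V0B, a proteolipid of the proton-carrying rotor ring, had 74.9 and 109 FPKM. These 2 genes exchanged first and second rank between replicates, so their order was not resolved. ATP6V1D, of the central rotor shaft, had 59.5 and 47.1 FPKM, and ATP6AP1, an accessory protein that assists assembly in the endoplasmic reticulum, had 50.3 and 65.0. Those also exchanged ranks, while the order of the remaining 6 members was the same in both tables. ATP6V1E1, of the peripheral stalk, had 45.6 and 44.5 FPKM, and ATP6V0D1, which couples the rotor ring to the central shaft, had 26.3 and 40.5. The nucleotide-binding head was lower: its B subunit ATP6V1B2 had 20.3 and 22.6 FPKM and its catalytic A subunit ATP6V1A had 17.04 and 18.8. ATP6V1H, a regulator that silences detached V1, had 15.4 and 15.3 FPKM, and ATP6V1C1, the stalk subunit released when the pump comes apart, was lowest at 8.11 and 7.73. Apart from the pairs that exchanged ranks, neighbours did not overlap over the 2 DMSO libraries, by as little as 45.6 against 47.1 FPKM between ATP6V1E1 and ATP6V1D. The levels come from separately made tables, between which ATP6V0D1 differed by 1.54-fold. In the first table the DMSO value of ATP6V0D1 was the lowest of its 10 libraries, whose median was 32.5 FPKM. All first-table differences of ATP6V0D1 below share that low control.

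**Figure D1:**
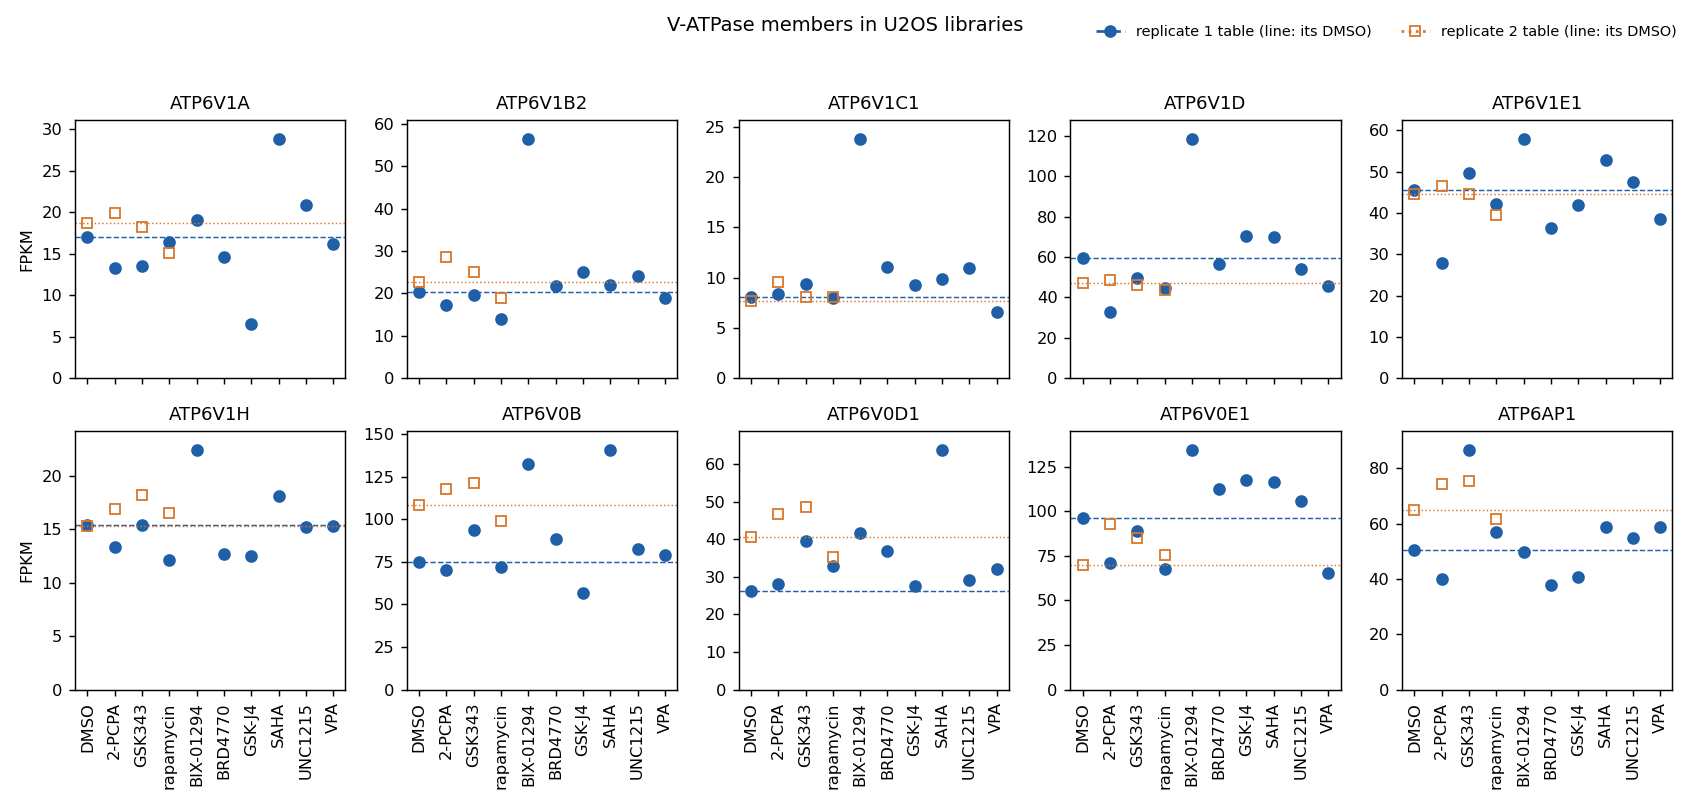
FPKM of the 10 V-ATPase members (1 panel each, linear axis from 0) in the 10 libraries of the first table (filled circles) and the 4 of the second (open squares), with lines at DMSO of each table. The BIX-01294 points of ATP6V1B2 (56.4 FPKM) and ATP6V1C1 (23.8) and the SAHA point of ATP6V0D1 (63.7) lie far above their DMSO lines, and the GSK-J4 point of ATP6V1A (6.57) lies far below.

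BIX-01294 gave the widest departure from DMSO over the members. Of the 10, 9 lay above DMSO and 5 were past 1.5-fold higher on the log2(FPKM + 1) scale, where 21.9% of 12804 genes were, and 0 were past 1.5-fold lower, where 15.5% of genes were. The median member difference was 0.58 on the log2 scale, beside 0.06 for all genes, and 9 of 10 members lay above that all-gene median. The share of all genes above DMSO was not computed for single libraries. With libraries scaled to the same summed FPKM, 8 of 10 lay above DMSO and the median was 0.42. This was 1 library against 1, with no replicate check and no test.

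Within the V1 sector, ATP6V1C1 had 23.8 FPKM in BIX-01294 against 8.11 in DMSO, a ratio of 2.93. ATP6V1B2 had 56.4 FPKM against 20.3, a ratio of 2.77. ATP6V1D had 118 FPKM against 59.5, a ratio of 1.99. For each of these 3 genes the BIX-01294 value was the highest of the 10 libraries of its table, and their log2 differences stood at the 95.6, 95.5 and 89.7 percentiles of all genes. The catalytic partner of ATP6V1B2 did not share this: ATP6V1A had 19.1 FPKM against 17.04, a ratio of 1.12. ATP6V1H had 22.4 FPKM against 15.4 and ATP6V1E1 57.8 against 45.6, ratios of 1.46 and 1.27 that lay below the 1.5-fold limit.

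Within the V0 sector, ATP6V0B had 132 FPKM in BIX-01294 against 74.9 in DMSO (ratio 1.77) and ATP6V0D1 had 41.7 against 26.3 (ratio 1.59). The DMSO value of ATP6V0D1 was the lowest of its table, whose median was 32.5 FPKM. ATP6V0E1 had 134 FPKM against 96.1 (ratio 1.40). The accessory ATP6AP1 stood outside the pattern, with 49.7 FPKM against 50.3, a ratio of 0.987.

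The other subunits of the pump were split in the same library. Of 8 that reached a mean of 1 FPKM in the first table, 3 were past 1.5-fold higher and 2 past 1.5-fold lower, with a median log2 difference of 0.08. ATP6V1G1, the peripheral stalk partner of ATP6V1E1 whose promoter stretch is shown above, had 93.8 FPKM against 44.9. ATP6V0A2, an isoform of the a subunit that forms the proton path, had 7.21 against 2.15 FPKM. A second a isoform went the other way: TCIRG1 had 8.13 FPKM against 16.3. ATP6V0E2, the alternative to ATP6V0E1, had 1.92 FPKM against 5.04, and ATP6V1F of the central shaft had 35.3 against 53.2. ATP6V0C, the main proteolipid of the ring, had 156 FPKM against 103. Of the paired e isoforms, ATP6V0E1 was thus above and ATP6V0E2 below DMSO in this library.

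In BIX-01294 the lysosomal and F-type lists had medians near or below 0, while TFE3 was past 1.5-fold higher. Of 25 lysosomal membrane and enzyme genes measured, 3 were past 1.5-fold higher and 2 past 1.5-fold lower, with a median log2 difference of -0.02, and NPC1, which exports cholesterol from lysosomes, had the highest value (11.9 against 4.20 FPKM). The 16 subunits of the mitochondrial F-type ATP synthase had a median of -0.10, with 0 past 1.5-fold higher and 3 past it lower. Of 16 assembly and regulation genes, 4 were past 1.5-fold higher, among them TMEM199, an assembly factor of the pump (24.2 against 9.23 FPKM), and 3 were past it lower, among them LAMTOR2 of the Ragulator complex (11.9 against 23.5). TFE3 had 96.2 FPKM against 52.6, MITF 8.18 against 5.68 and TFEB 4.49 against 2.92, and TFEC, at 0.0816 FPKM in DMSO, was not measured by this filter. In GSK-J4 the same 3 factors had 78.5 (TFE3), 10.4 (MITF) and 1.59 FPKM (TFEB), and in SAHA 51.1, 9.12 and 4.83. Whether these factors bear on the members was not tested. The BIX-01294 library also had the lowest estimated depth of its table, 0.555 relative to DMSO. Its log2 differences over 11412 genes had a Spearman correlation of -0.252 with transcript GC content. After subtracting the median of genes of like GC, 5 of the 10 members stayed past 1.5-fold higher and the member median was 0.55. Of 5 U2OS markers measured, 2 were past 1.5-fold lower and 0 past it higher, the lowest being RUNX2 with a log2 difference of -1.46. RUNX2 was also the lowest of these markers in BRD4770 (-1.95), SAHA (-1.26), GSK-J4 (-1.12), VPA (-0.88) and UNC1215 (-0.57). These differences share 1 DMSO library, whose RUNX2 value of 5.27 FPKM was the highest of the first table. RUNX2 is a gene of low FPKM, at 1.42 to 2.76 in the second table. The number past 1.5-fold lower was 3 of 5 in BRD4770, 1 of 5 in each of SAHA, GSK-J4 and VPA, and 0 of 5 in UNC1215. The part of depth and of these markers in the results of these libraries was not tested.

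**Figure D2:**
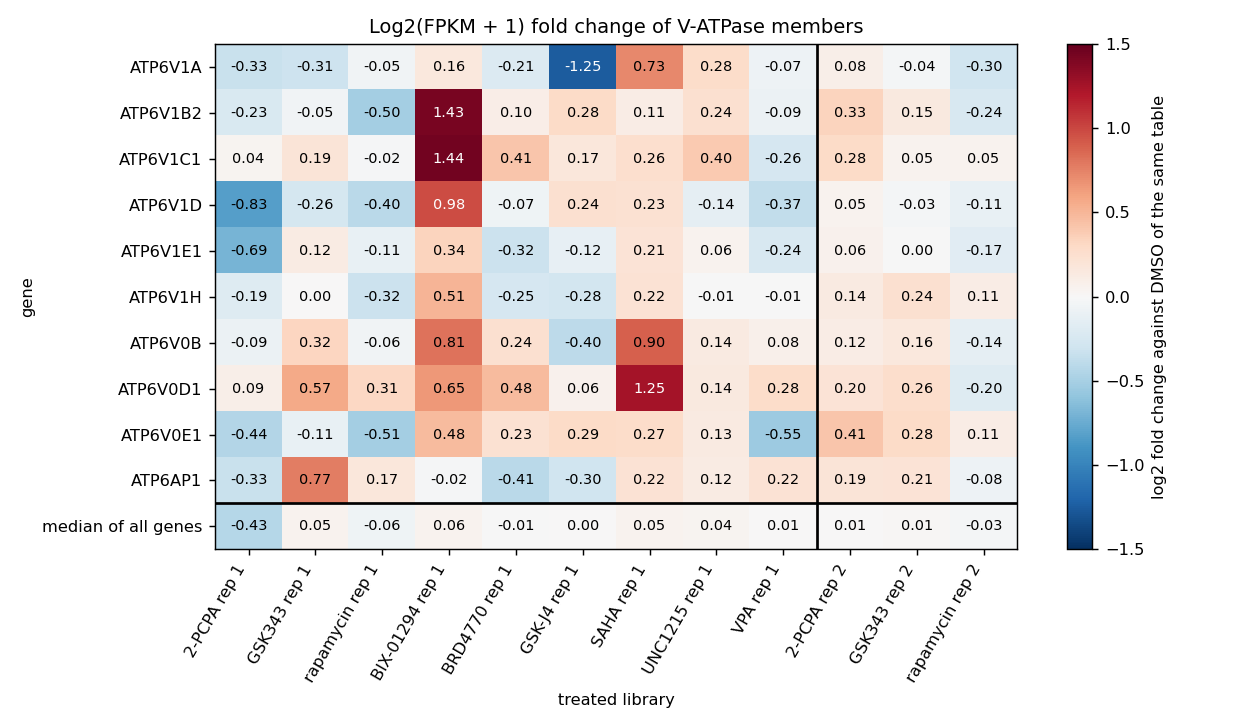
Log2(FPKM + 1) difference from DMSO of the same table for the 10 members (rows) in the 9 treated libraries of the first table and the 3 of the second (columns), with the median of all genes in the bottom row. The BIX-01294 column runs from -0.02 (ATP6AP1) to 1.44 (ATP6V1C1), and the first 2-PCPA column is the only one with a median of all genes as low as -0.43.

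In SAHA all 10 members lay above DMSO, and above the all-gene median log2 difference of 0.05, in the values as deposited. With each library scaled to the same summed FPKM, 8 of 10 lay above DMSO (7 of 10 with the sum over symbols in both tables). The highest differences were those of 2 V0 genes and ATP6V1A. ATP6V0D1 had 63.7 FPKM against 26.3 in DMSO, a ratio of 2.42, and ATP6V0B had 140 against 74.9, a ratio of 1.88. Each was at its own highest level of the first table, and for ATP6V0D1 DMSO was the lowest (median 32.5 FPKM). ATP6V1A had 28.8 FPKM against 17.04, a ratio of 1.69, also its highest level of that table. These 3 of 10 members were past 1.5-fold higher, where 19.1% of all genes were. The library's log2 differences had a Spearman correlation of 0.200 with transcript GC content, and minus the median of genes of like GC the 3 values were 1.10 (ATP6V0D1), 0.81 (ATP6V0B) and 0.75 (ATP6V1A). The log2 differences of the other 7 lay between 0.11 (ATP6V1B2) and 0.27 (ATP6V0E1). The median was 0.90 over the 3 V0 genes and 0.23 over the 6 V1 genes. Over all 10 it was 0.24, beside 0.05 for all genes, and it was 0.04 when each library was scaled to the same summed FPKM, which took the count past 1.5-fold to 2.

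In the values as deposited, several neighbouring lists were also above DMSO at the median in SAHA. The summed FPKM of this library was 531006 against 456039 in DMSO, and these lists were not rescaled. Of 16 F-type ATP synthase subunits, 7 were past 1.5-fold higher, where 19.1% of all genes were, and the median log2 difference was 0.37. The lysosomal list had 6 of 25 past 1.5-fold higher, near that share, and a median of 0.26. Other V-ATPase subunits had 3 of 8 past it, with ATP6V0C at 187 FPKM against 103 in DMSO, while ATP6V0A2 was at 1.11 against 2.15. The assembly and regulation list had a median of 0.06, beside 0.05 for all genes. Of its 16 genes, 3 were past 1.5-fold higher and 2 past it lower, where 11.8% of all genes were. The V-ATPase members stood no higher at the median than the F-type, lysosomal and other subunit lists in this library, and higher than the assembly list.

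In GSK-J4 the members lay on both sides of DMSO, 5 above and 5 below, with a median log2 difference of -0.03. A single member was past 1.5-fold lower, ATP6V1A, where 16.4% of all genes were, and 0 were past it higher, where 19.1% of genes were. ATP6V1A had 6.57 FPKM against 17.04 in DMSO, a ratio of 0.385, the lowest of its 14 libraries and at the 3.4 percentile of all genes. Its partner in the head, ATP6V1B2, had 25.0 FPKM against 20.3, so the A and B subunits, which form the head in equal numbers, had opposite differences in this library. ATP6V1F had 22.2 FPKM against 53.2. ATP6V0A4, an a isoform of kidney and inner ear, had 3.63 FPKM against 0.284, the highest of its 14 libraries. Every one of these values rests on 1 library.

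BRD4770, UNC1215 and VPA had 0 of 10 members past 1.5-fold in either direction. The background was 14.5% of genes higher and 13.8% lower for BRD4770, 6.26% and 4.09% for UNC1215, and 10.1% and 6.83% for VPA. In BRD4770 the widest values were ATP6V0D1 at 37.0 FPKM against 26.3 in DMSO and ATP6AP1 at 37.6 against 50.3. For ATP6V0D1 that DMSO value was the lowest of the first table, and for ATP6AP1 the BRD4770 value was. In UNC1215, 8 of 10 members lay above DMSO, none by more than ATP6V1C1 at 10.98 FPKM against 8.11. There 8 also lay above the all-gene median log2 difference of 0.04. In VPA, 7 of 10 lay below DMSO and 3 above the all-gene median of 0.01. The furthest below DMSO was ATP6V0E1 at 65.5 FPKM against 96.1, a ratio of 0.681. It passed the limit when libraries were scaled to the same summed FPKM. ATP6V1E2, an isoform of ATP6V1E1, had 11.3 FPKM in VPA against 3.47. BRD4770 and BIX-01294, both described as acting on G9a, were given at different doses and times, 20 µM for 24 h and 5 µM for 12 h. Their values for ATP6V1B2 were 21.8 and 56.4 FPKM, and for ATP6V1D 56.6 and 118.

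The replicated groups gave no member past the test. A limma fit on log2(FPKM + 1) over 12603 genes, with the replicate number as a block and Benjamini-Hochberg adjustment, called 0 of 10 members in each of 6 comparisons, and 0 of 10 had an unadjusted p below 0.05 in any of them. Calls were rare over all genes too, at 0.0238% of genes for 2-PCPA against DMSO, 0.0159% for GSK343 and 0.0159% for rapamycin. Genes with an unadjusted p below 0.05 made up 7.48%, 4.22% and 6.46% in the same order. With 2 libraries a group, the 95% interval of a log2 difference spanned 0.57 on each side of the estimate for the median gene.

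For 2-PCPA the replicates disagreed. In replicate 1, 8 of 10 members lay below DMSO with a median log2 difference of -0.28, beside -0.42 for all genes tested. In replicate 2, 10 of 10 lay above DMSO with a median of 0.17, beside 0.01. Scaled to the same summed FPKM, 8 of 10 members lay above DMSO in replicate 1 and 10 of 10 in replicate 2, so the disagreement held for the values as deposited. ATP6V1D had 33.0 FPKM against 59.5 in replicate 1 and 48.8 against 47.1 in replicate 2. ATP6V1E1 had 27.8 against 45.6 and 46.4 against 44.5. These 2 of 10 members were past 1.5-fold lower in replicate 1, where 34.8% of all genes were, and near DMSO in replicate 2. None of the 10 was past 1.5-fold higher in replicate 1, where 3.19% of genes were. ATP6V0E1 had 70.8 against 96.1 FPKM and then 93.1 against 69.8, opposite directions in the 2 tables.

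ATP6V1C1 and ATP6V0D1 were the 2 of 10 members higher in both 2-PCPA replicates, where 11.5% of genes were, and 0 were lower in both, where 42.2% of genes were. ATP6V1C1 had 8.36 FPKM against 8.11 and 9.62 against 7.73, a limma log2 difference of 0.16 ± 0.20 (SE, n = 2 per group). The largest difference was that of ATP6V1D, -0.39 ± 0.26 (SE), with an adjusted p of 0.598 in limma and a 95% interval of -0.98 to 0.20. The member median was -0.02, beside -0.20 for all genes. It was 0.31 when libraries were scaled to the same summed FPKM, so the sign depended on the scaling. Members higher in both replicates then numbered 8 of 10 (42.4% of genes), and 7 of 10 with libraries centred on their medians (31.0%). Without the second 2-PCPA library, 1 member passed the test: ATP6V1E1 at -0.72, with a limma adjusted p of 0.0497, the lone 2-PCPA library being assumed to vary like the other groups. In that fit 7.88% of all genes were called lower, so 1 of 10 members is near the background.

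Around the pump, 0 genes of the lists passed the adjusted test in 2-PCPA. NCOA7, a protein that interacts with the V-ATPase, had a log2 difference of 0.67 (limma unadjusted p = 0.0115, adjusted p = 0.592) and NPC1 one of 0.52 (unadjusted p = 0.0327, adjusted p = 0.592). In the values as deposited, the F-type ATP synthase list was lower in both replicates for 15 of 16 genes, with a median of -0.42, against the background of 42.2% of genes. Its medians by replicate were -0.75 and -0.13, beside -0.42 and 0.01 for all genes tested. The first 2-PCPA library had a summed FPKM of 291956 against 456039 in DMSO, and the lists around the pump were not rescaled. Other V-ATPase subunits, leaving out ATP6V1G2, whose row held the values of a readthrough transcript in the second table, were lower in both replicates for 3 of 8 tested.

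For GSK343, 5 of 10 members were higher in both replicates, where 34.6% of genes were, and 2 were lower in both (ATP6V1A and ATP6V1D), where 26.7% of genes were. The median member difference was 0.10 on the log2 scale, beside 0.03 for all genes, and 0.005 with libraries scaled to the same summed FPKM. ATP6AP1 had 86.4 FPKM against 50.3 in replicate 1 and 75.3 against 65.0 in replicate 2, a limma log2 difference of 0.49 ± 0.28 (SE, n = 2 per group) with a 95% interval of -0.16 to 1.14 and an adjusted p of 0.949. ATP6V0D1 had 39.5 against 26.3 and 48.7 against 40.5 FPKM, a difference of 0.42 ± 0.24 (SE). Both genes lay above DMSO in both tables, by more in the first, where the DMSO value of ATP6V0D1 was the lowest of all libraries. ATP6V0B had 93.8 against 74.9 and 122 against 109 FPKM. The catalytic ATP6V1A had 13.5 against 17.04 and 18.3 against 18.8 FPKM, so the members did not share a direction.

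The 3 members with the highest GC content were those with the highest log2 differences in the first GSK343 library. GC of the longest transcript was 55.0% for ATP6AP1, 56.5% for ATP6V0B and 58.1% for ATP6V0D1, and 39.7% to 48.0% for the other 7. Over all genes with a GC value, log2 differences of this library had a Spearman correlation with GC of 0.520, beside 0.218 for the second GSK343 library. After subtracting the median of genes of like GC, the replicate 1 values went from 0.77 to 0.55 for ATP6AP1, from 0.57 to 0.29 for ATP6V0D1 and from 0.32 to 0.10 for ATP6V0B. The limma differences over both replicates were then 0.38 for ATP6AP1 and 0.25 for ATP6V0D1.

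**Figure D3:**
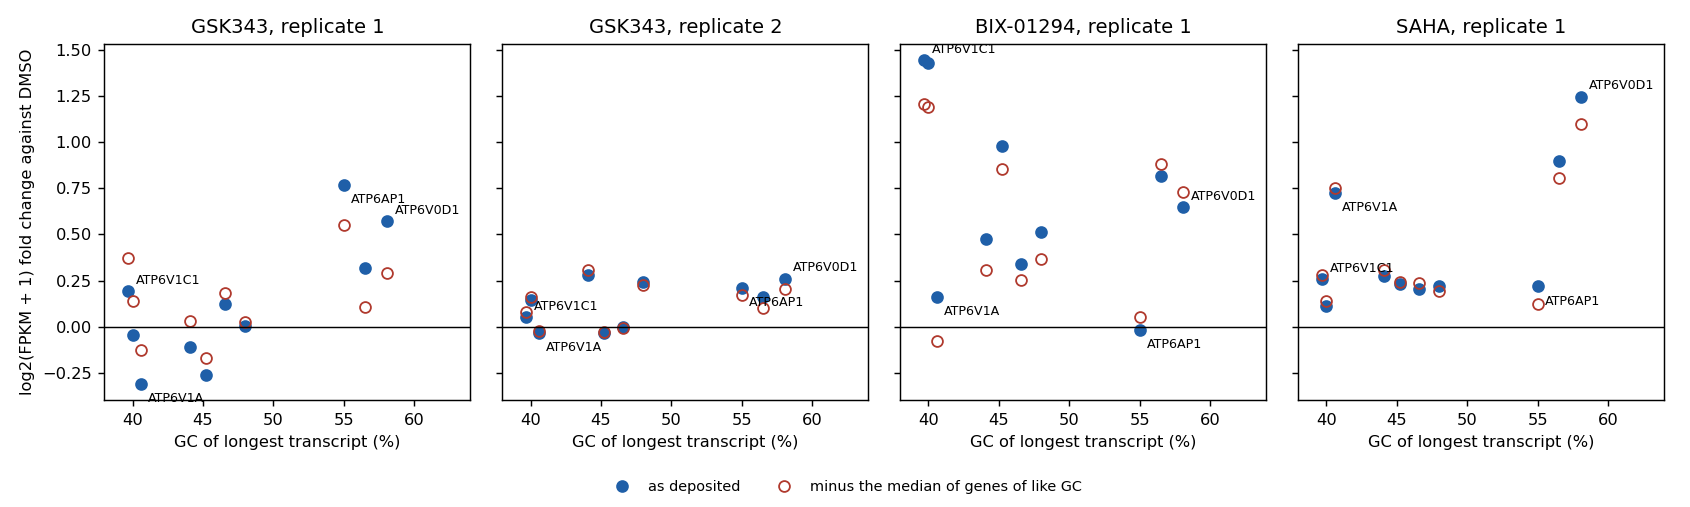
Log2(FPKM + 1) difference from DMSO of the 10 members against the GC content of their longest transcript, in both GSK343 libraries, BIX-01294 and SAHA; filled circles are values as deposited and open circles the same minus the median of genes of like GC. In the first GSK343 library ATP6AP1 moves from 0.77 to 0.55 and ATP6V0D1 from 0.57 to 0.29, while in BIX-01294 the member median goes from 0.58 to 0.55.

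In the values as deposited, lysosomal genes outside the pump stood higher than the members at the median in GSK343. Of 26 tested, 20 were higher in both replicates, where 34.6% of genes were, and 3 lower in both, where 26.7% were. Their median log2 difference was 0.36, with 0 past the adjusted test. This list was not read under GC centring or equal sums. CLCN7, the lysosomal chloride-proton exchanger, had the highest value, 1.02 (limma unadjusted p = 0.0135, adjusted p = 0.949). NPC2 had 0.74, TPP1 0.61, NPC1 0.54 and MCOLN1 0.53, each with an unadjusted p below 0.05. Of the other V-ATPase subunits, leaving out ATP6V1G2, 4 of 8 were higher in both replicates and 0 lower in both, the highest being ATP6V0C at 0.54 ± 0.28 (SE).

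For rapamycin, 5 of 10 members were lower in both replicates, where 37.1% of genes were, and 0 were higher in both, where 25.5% of genes were. The 5 were ATP6V1A, ATP6V1B2, ATP6V1D, ATP6V1E1 and ATP6V0B. The number depended on the scaling. With equal sums over the symbols in both tables it was 6 of 10 (42.4% of genes). It was 8 of 10 when the sums ran over all rows of a table. For that scaling the share of all genes was not computed, so the count has no background beside it. With libraries centred on their medians it was 3 of 10 (31.0% of genes), and with GC centring 3 of 10 (31.9%). The median member difference was -0.12 on the log2 scale, beside -0.05 for all genes, -0.07 with libraries centred on their medians and -0.18 with libraries scaled to the same summed FPKM. ATP6V1B2 had 14.03 FPKM against 20.3 in replicate 1 and 18.9 against 22.6 in replicate 2, its own lowest level of each table. Its limma log2 difference of -0.37 ± 0.22 (SE, n = 2 per group) had a 95% interval of -0.88 to 0.13 and an adjusted p of 0.774. ATP6V1D had 44.8 against 59.5 and 43.6 against 47.1 FPKM. ATP6V0D1 had 32.9 against 26.3 in replicate 1 and 35.2 against 40.5 in replicate 2, so its replicates lay on opposite sides of DMSO.

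In rapamycin, in the values as deposited, the lysosomal list lay higher than the members at the median, with a log2 difference of 0.31. Of its 26 genes, 18 were higher in both replicates, where 25.5% of genes were, and 5 lower in both, where 37.1% were. CLCN7 had 0.96 (limma unadjusted p = 0.0178, adjusted p = 0.721) and NPC2 0.76 (unadjusted p = 0.0235, adjusted p = 0.737). GSK343 and rapamycin share their DMSO libraries, so these values are given side by side only. TFE3, the most abundant MiT factor, had 53.3 FPKM against 52.6 and 57.0 against 57.8 in the rapamycin libraries.

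**Figure D4:**
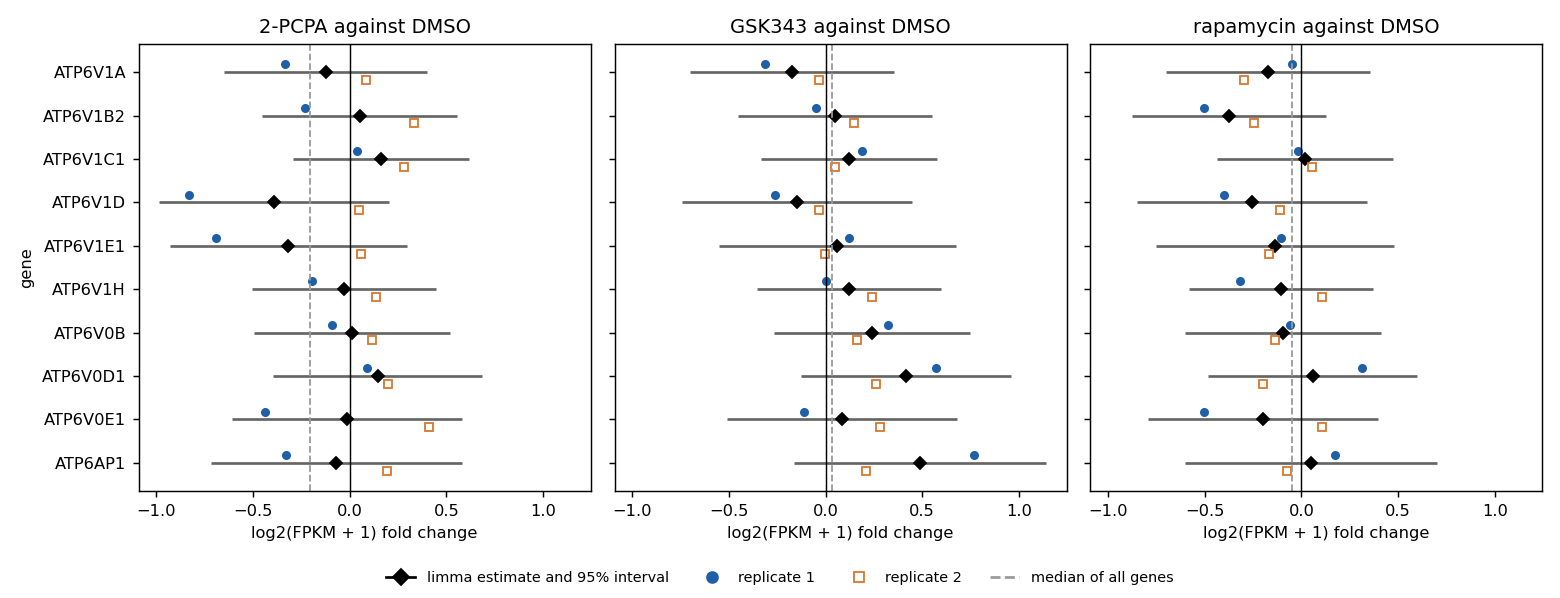
Limma log2(FPKM + 1) differences from DMSO (diamonds) with 95% confidence intervals for the 10 members in 2-PCPA, GSK343 and rapamycin, with the difference in replicate 1 (circles) and replicate 2 (squares) and the median of all tested genes (dashed line). Every interval spans 0, and the 2-PCPA replicates of ATP6V1D (-0.83 and 0.05) are the furthest apart of that panel.

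Between compounds, again 0 of 10 members passed the test (background 0.0476% of genes for 2-PCPA against rapamycin, 0.0793% for GSK343 against rapamycin and 0.0317% for 2-PCPA against GSK343). GSK343 and rapamycin were both given for 24 h, at 10 and 5 µM. Of the members, 8 of 10 were higher in GSK343 than in rapamycin in both replicates and 0 were lower in both, where 39.6% and 19.4% of genes were, and the median difference was 0.26 beside 0.08 for all genes (0.16 with libraries centred on their medians). ATP6AP1 differed by 0.44 ± 0.28 (SE) with a limma adjusted p of 0.955, and ATP6V1B2 by 0.42 ± 0.22 (SE) with an adjusted p of 0.923 and a 95% interval of -0.08 to 0.93. ATP6V1B2 had 19.6 against 14.03 FPKM in replicate 1 and 25.1 against 18.9 in replicate 2. ATP6V1A and ATP6V1C1 were the 2 members whose replicates disagreed in sign. Genes with an unadjusted p below 0.05 made up 5.6% for this comparison, 11.8% for 2-PCPA against rapamycin and 11.6% for 2-PCPA against GSK343. The dose and time of 2-PCPA differed from those of GSK343 and rapamycin. Its member median was 0.08 against rapamycin, with 4 of 10 higher in both replicates (15.3% of genes) and 0 lower in both (37.0%), and -0.19 against GSK343, with 0 higher in both (10.5%) and 4 lower in both (44.4%). Scaled to the same summed FPKM, 10 of 10 were higher in both replicates against rapamycin (52.2% of genes) and 8 of 10 against GSK343 (47.5%), so the direction against GSK343 depended on the scaling. All-gene medians were -0.14 and -0.23. Without the second 2-PCPA library, ATP6V1E1 (-0.78, limma adjusted p = 0.0338) and ATP6AP1 (-0.95, adjusted p = 0.0386) passed against GSK343, 2 of 10 where 19.5% of all genes were called lower.

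Among subunits outside the 10, TCIRG1 was the highest a isoform in all 14 libraries. It was at 8.13 to 26.4 FPKM in the first table and 23.8 to 30.0 in the second, and ATP6V0A2 at 1.11 to 7.21 and 2.49 to 2.85. ATP6V0A1 did not exceed 1.22 FPKM, and the tissue-restricted ATP6V1G3 was listed at 0 in all 14 libraries. ATP6V1B2 was the more abundant B subunit, its relative ATP6V1B1 of kidney not exceeding 1.65 FPKM. ATP6V1G2 could not be read: in the second table its row held the same values as the readthrough row ATP6V1G2-DDX39B in 4 of 4 libraries (135 to 149 FPKM), while in the first it was listed at 0 in 8 of 10.

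Across the 12 treated libraries, members differed in how closely they followed the rest. Pearson's r between a member's log2 difference and the median of the other 9 was 0.79 for ATP6V1E1 and ATP6V1D, 0.36 for ATP6V1A and 0.06 for ATP6AP1. Without BIX-01294 it was 0.77, 0.58, 0.36 and 0.20. The points share control libraries and a table, so these are descriptions of the libraries. Among 8161 genes whose mean reached 5 FPKM in each table, those whose differences were most like the member median were YTHDF1 (r = 0.96), RNF11 (0.95), PTBP3 (0.95), RPF1 (0.95) and UBQLN1 (0.94). YTHDF1, a reader of methylated adenosine in mRNA, had 93.6 FPKM in BIX-01294 against 47.1 in DMSO. These genes were picked for the highest r, so the likeness and the direction in BIX-01294 follow from the choice. Their r without BIX-01294 was not computed.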

How the data were processed

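The authors deposited FPKM values per gene in 2 tables, 1 per replicate number. Per the submitters' processing notes, the tools named were FastQC, cutadapt and TopHat2, and the build was hg19. No program for FPKM, annotation, strand or tool version is given in the sources used here. The unused sample columns numbered 0, and the 1 row whose symbol was "unknown" was dropped. Members, lists and tests were chosen with earlier results of these data known.

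Differences were taken within a table on log2(FPKM + 1), which understates changes of low genes. Limma 3.58.1 in R 4.3.3 fitted the 8 libraries of the 4 replicated groups over 12603 genes (mean of 1 FPKM or more in them), with an intensity trend and the replicate number as a block. There were 3 residual and 5.42 prior degrees of freedom, and p-values were adjusted by Benjamini-Hochberg with a threshold of 0.05. The number pairs libraries because it is also the table: deviations from group means correlated at 0.710 to 0.784 over 6 pairs. The script was tested on simulated data. Single libraries were compared by a limit of 1.5-fold over 12804 genes, with no test. Named genes were the 10 members and, from other lists, those past the test, the highest and lowest, partner subunits of a member, and the 5 genes most like the member median. Other genes of those lists with an unadjusted p below 0.05, and the MiT factors, were named after their values were seen. Alternatives covered the pseudocount, filter, scaling, block, trend, groups fitted, small RNA rows and left-out libraries. Centring by GC content (longest GENCODE transcript of each symbol, 20 bins) was added after seeing the data, as were counts of members with the same direction in both replicates under other scalings. Scaling to the same summed FPKM used the symbols in both tables for the limma fits and all rows of the table for single libraries.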

Additional observations from a re-analysis of the deposited data

How the results depend on the processing

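Counts of members were equal to those reported, or within a ratio of 1.5 of them, under 138 alternatives and further off under 3. The lower SAHA count with libraries scaled to the same summed FPKM is among the 138. Without the second 2-PCPA library, 1 member passed in 2-PCPA against DMSO and 2 in 2-PCPA against GSK343 (leave-one-out ranges 0 to 1 and 0 to 2), where 7.88% and 19.5% of all genes were called lower, and with libraries scaled to the same summed FPKM 1 member passed 1.5-fold in VPA. Member medians moved by no more than a spread between replicates under 122 alternatives and by more under 19. For single-library compounds, which have no replicates, that spread was 0.19, pooled from the replicated compounds. For 2-PCPA against DMSO it was 0.31. A change of sign from -0.02 to 0.18 with median centring thus counted as within it. Scaling to the same sum gave 0.31 for 2-PCPA against DMSO, 0.005 for GSK343, -0.18 for rapamycin, 0.48 for 2-PCPA against rapamycin, 0.25 for 2-PCPA against GSK343 and 0.036 for SAHA. Median centring gave -0.072 for rapamycin and 0.16 for GSK343 against rapamycin, and GC centring -0.069 for rapamycin. Leaving out 1 library at a time, medians ranged from -0.039 to 0.23 for GSK343, -0.24 to -0.026 for rapamycin and 0.17 to 0.35 for GSK343 against rapamycin. The cause was not tested.

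Member differences from DMSO, none of which passed the test, changed sign under 45 alternatives and kept it under 524 with the same call. With equal sums, 2-PCPA gave 0.20 for ATP6V1A, 0.017 for ATP6V1E1, 0.30 for ATP6V1H, 0.33 for ATP6V0E1 and 0.27 for ATP6AP1. GSK343 then gave -0.050 for ATP6V1B2, -0.039 for ATP6V1E1 and -0.015 for ATP6V0E1, and rapamycin -0.037 for ATP6V1C1, -0.0002 for ATP6V0D1 and -0.012 for ATP6AP1. For 2-PCPA, median centring gave 0.077 for ATP6V1A, 0.17 for ATP6V1H, 0.19 for ATP6V0E1 and 0.13 for ATP6AP1, and GC centring 0.070, 0.17, 0.21 and 0.12 for the same genes. Leave-one-out ranges for 2-PCPA were -0.33 to 0.079 for ATP6V1A, -0.15 to 0.26 for ATP6V1B2, -0.72 to 0.090 for ATP6V1E1, -0.19 to 0.14 for ATP6V1H, -0.13 to 0.16 for ATP6V0B, -0.049 to 0.34 for ATP6V0D1, -0.32 to 0.30 for ATP6V0E1 and -0.47 to 0.33 for ATP6AP1. For GSK343 they were -0.12 to 0.22 for ATP6V1B2, -0.0007 to 0.24 for ATP6V1C1, -0.38 to 0.086 for ATP6V1D, -0.12 to 0.24 for ATP6V1E1, -0.044 to 0.29 for ATP6V1H and -0.22 to 0.39 for ATP6V0E1. For rapamycin they were -0.41 to 0.066 for ATP6V1A, -0.0099 to 0.048 for ATP6V1C1, -0.27 to 0.059 for ATP6V1H, -0.17 to 0.28 for ATP6V0D1, -0.51 to 0.11 for ATP6V0E1 and -0.071 to 0.17 for ATP6AP1.

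Without the replicate block, 0 members passed in each of the 6 comparisons, and medians were -0.02, 0.10 and -0.12 for 2-PCPA, GSK343 and rapamycin against DMSO, as with it. Over all genes, calls against DMSO went from 3, 2 and 2 to 1, 0 and 0 without the block and to 39, 47 and 68 without small RNA and clone rows. Between compounds they went from 6, 10 and 4 to 1, 0 and 1 without the block and to 218, 99 and 23 without those rows (2-PCPA against rapamycin, GSK343 against rapamycin, 2-PCPA against GSK343). Fitting only the groups compared gave 272 for 2-PCPA against DMSO and 389 for 2-PCPA against rapamycin, and the other settings stayed between 0 and 44. Over left-out libraries, the 6 counts ranged from 2 to 1026, 0 to 84, 0 to 42, 1 to 1265, 0 to 118 and 1 to 2485, those of 2-PCPA being highest without its second library. Such a fit can leave 1 library in a group, assumed to vary like the others. Absolute depth is unknown, and single libraries have no replicate error.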
